A study of Mus musculus with 24 samples.

Results

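The departure from additivity between the loss of Ret and the loss of Sema3d was examined in 24 whole guts of mouse embryos, across 4 genotypes of 6 guts each. Every gut of the series entered it, and it was read from the product coefficient of the authors' deposited 24-gut model. That coefficient is the log2 change of double null guts minus the sum of the log2 changes of both single nulls, against the same wildtype guts. Of 26260 rows in the authors' deposited table, 22438 had genotype coefficients within 15 on the log2 scale and models that converged, and these make up the genes described here. Among converged rows the largest coefficient within that bound had a size of 8.33 and the smallest beyond it 23.1.

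The guts came from embryonic day 12.5, with 3 females and 3 males of each genotype: wildtype embryos, Ret null embryos, Sema3d null embryos and embryos null for both genes, called double null. All groups shared a mixed background of the strains C57BL/6, 129/Sv and C3H, and both nulls were homozygous. Poly-A RNA of each gut gave a library of its own. The labels give no litters, and a whole gut holds muscle, connective tissue, epithelium and vessels beside the nervous system.

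Ret is the receptor tyrosine kinase through which GDNF-family ligands drive the survival, division and migration of the neural crest cells that form the enteric nervous system, the neurons and glia of the gut wall. Sema3d is a secreted class 3 semaphorin, a family of guidance cues read by neuropilin and plexin receptors. On a log scale, a product coefficient of 0 means that the double null carries both single changes multiplied together. A positive value means a double null level above that product and a negative value one below it.

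The deposited values were model fits per gene and no value per gut, so the depth of each library is unknown. Each level below is a fitted level in normalised counts, averaged over the sexes, and each error after ± was derived from a coefficient and its likelihood test. At a fitted level of at least 50 in any genotype, which 12411 genes reached, the median derived error of the product coefficient was 0.136. Markers of the labelled tissue were present in all 4 genotypes: the fitted levels of Epcam, of epithelium, lay between 1139 and 1230, and those of Foxf1, of gut mesenchyme, between 3336 and 4035. Of the genes chosen as kidney markers, Pax2 lay between 0.839 and 2.38 and Six2 between 511 and 590.02 in the 4 genotypes, and skeletal muscle Myod1 between 2.35 and 7.77. Whether the Six2 level came from kidney or from the gut itself was not tested. The liver gene Alb was fitted at 336 in wildtype, 15.2 in Ret null, 758 in Sema3d null and 824 in double null guts by a model that did not converge. Afp, the other liver gene chosen, was fitted at 929, 281, 1719 and 2003 in the same order. Its product coefficient was 1.94 ± 1.22 in the authors' deposited table (adjusted p = 0.823). The part of other tissues in the results below was not tested.

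The targeted genes were read first. Ret had fitted levels of 1523 in wildtype, 4.72 in Ret null, 1328 in Sema3d null and 1.15 in double null guts. The transcript was nearly lost wherever Ret was targeted and close to wildtype in Sema3d null guts. Its product coefficient was -1.83 ± 0.60 in the authors' deposited table (p = 0.00225, adjusted p = 0.263), on 2 levels of a few normalised counts, and did not pass. Sema3d had fitted levels of 815 in wildtype, 677 in Ret null, 389 in Sema3d null and 396 in double null guts. The product coefficient came to 0.29 ± 0.13 in the authors' deposited table (p = 0.0255, adjusted p = 0.636), so its level in double null guts was that of Sema3d null guts. The deleted exons are not resolved by these gene-level values. Of 407 genes within 20 Mb of Ret, 0 were called for the product coefficient and 20 had an unadjusted p under 0.05, and of 273 within 20 Mb of Sema3d 0 and 14. Of all genes 0.152% were called and 7.14% had such a p, so 0 calls in windows of this size is no result about these neighbours. The smallest p stood at Rassf4 near Ret and Kmt2c near Sema3d (adjusted p = 0.115 and 0.347 in the authors' deposited table).

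Few genes were called for a departure from additivity, and smaller departures could go uncalled. Of 26258 rows with an adjusted p in the authors' deposited table, a total of 43 passed 0.05 (0.164%), and 34 of these were bounded and converged (0.152% of 22438). Of the 34 genes, 27 had a positive product coefficient (0.12%) and 7 a negative one (0.0312%), 28 were protein coding, and 32 had a level of at least 50. The other 9 calls came from fits that did not converge, 7 of them pseudogenes, and give no fold change. At an unadjusted p under 0.05 there were 958 positive and 645 negative genes. The median product coefficient of all 22438 genes was -0.0023.

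The 27 genes with a positive product coefficient had one form. In all 27 both single null coefficients were negative, and in 21 the double null level lay nearer to wildtype than either single null. Their medians were 84.2% of wildtype in Ret null guts, 76.1% in Sema3d null guts and 99.98% in double null guts, where the product of both single changes would give 65.7%. The median product coefficient was 0.61. Of the 7 genes with a negative coefficient, 6 had both single null coefficients positive and a double null level nearer to wildtype than either, with medians of 152%, 167% and 117% of wildtype against 271% by multiplication. In none of the 34 were both single changes smaller than 0.25 times the double null change in size. Of all genes at a level of at least 50, 1.56% were placed in this form, so 0 of 34 is no result about the calls. All of these coefficients share the wildtype guts, so these forms are a description with no test. Among all genes at a level of at least 50, 39.1% had a double null level nearer to wildtype than either single null.

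**Figure D1:**
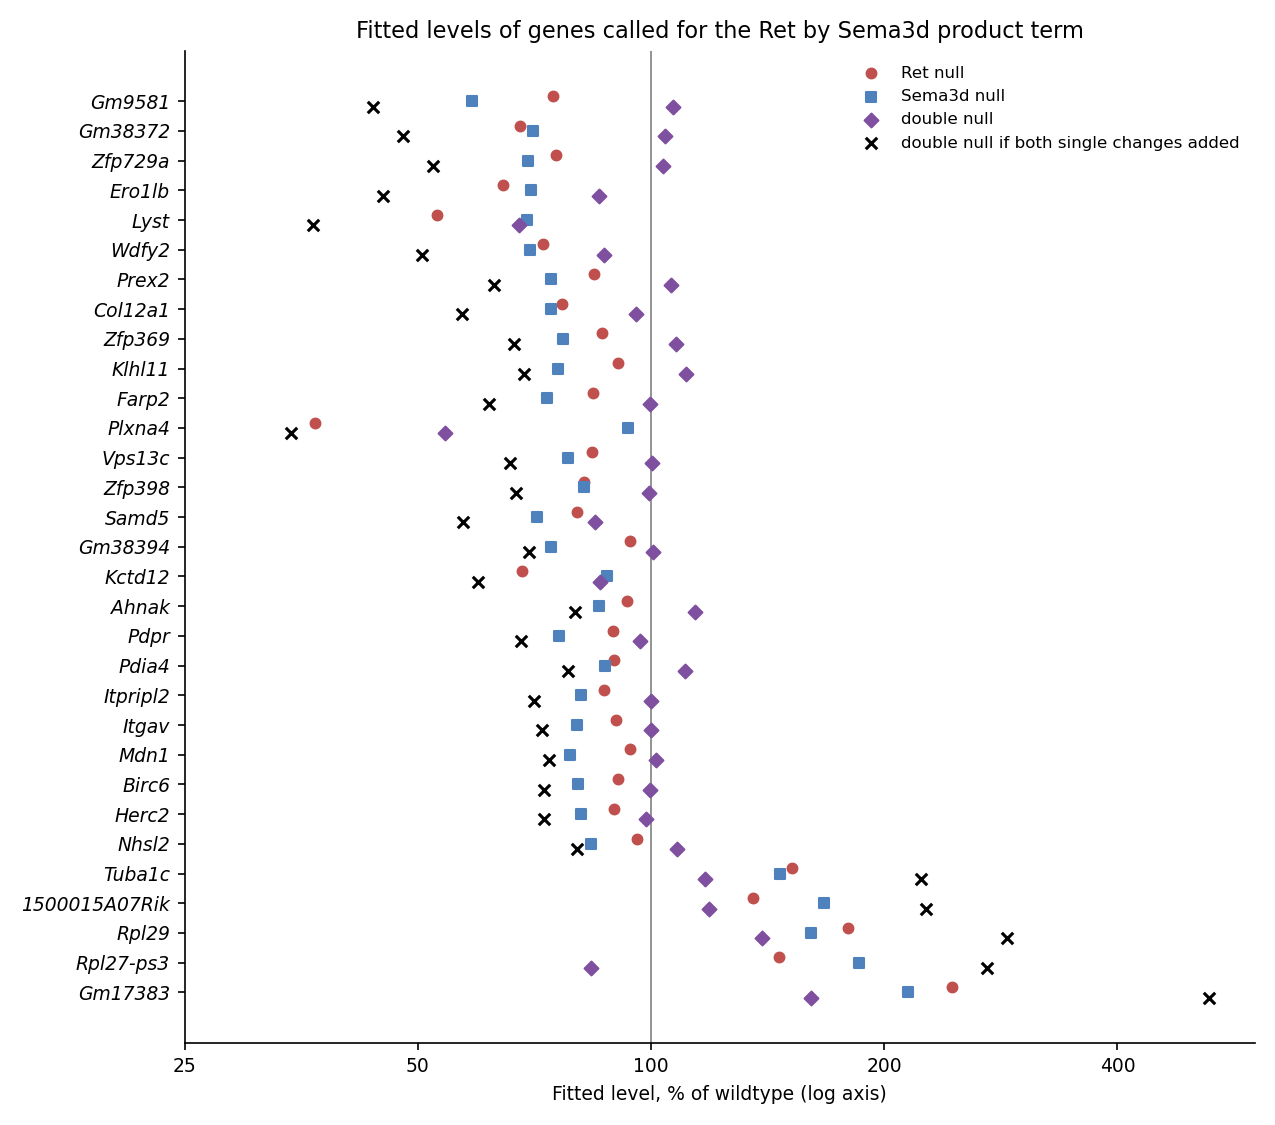
Fitted levels of 31 called genes with a wildtype level of at least 50, in % of wildtype on a log axis, for Ret null (circles), Sema3d null (squares) and double null guts (diamonds). Crosses mark the double null level that both single changes would give together. For the upper rows the diamonds lie near 100%, those of Lyst and Plxna4 lower, while the crosses lie well to their left, and for the lower 5 rows the crosses lie far to the right.

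Lyst and Plxna4 were lower than wildtype in double null guts as well as in Ret null guts. Lyst, a regulator of lysosome traffic (ENSMUSG00000019726.10, GRCm38 chr13:13590397-13778803, plus strand), had fitted levels of 546 in wildtype, 289 in Ret null, 378 in Sema3d null and 369 in double null guts. The double null level matched the Sema3d null level, where multiplication would give 200. The departure from additivity was 0.88 ± 0.18 in the authors' deposited table (adjusted p = 0.0033). Plxna4, a plexin receptor for class 3 and class 6 semaphorins (ENSMUSG00000029765.12, GRCm38 chr6:32144268-32588192, minus strand), had fitted levels of 670, 246, 625 and 363 in the same order. Its level was thus low in both genotypes without Ret, and less so in the double null, with a product coefficient of 0.66 ± 0.16 in the authors' deposited table (adjusted p = 0.027). Plxna4 was lower than wildtype by -1.45 ± 0.10 in the authors' deposited Ret null table and by -0.88 ± 0.12 in the double null one. Kctd12, an auxiliary subunit of GABA-B receptors, had a like order of levels, with 1058 in wildtype, 720 in Ret null, 928 in Sema3d null and 908 in double null guts. Its coefficient for the product was 0.52 ± 0.13 in the authors' deposited table (adjusted p = 0.049).

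Col12a1, a collagen that sits on the surface of fibrils, had fitted levels of 3672 in wildtype, 2817 in Ret null, 2732 in Sema3d null and 3510 in double null guts. Its product coefficient was 0.74 ± 0.17 in the authors' deposited table (adjusted p = 0.011). Farp2, a guanine nucleotide exchange factor that acts in semaphorin signalling through plexins, had 221, 186, 162 and 220 in the same order, with wildtype and double null guts together. The product coefficient came to 0.69 ± 0.15 in the authors' deposited table (adjusted p = 0.011). Prex2, an exchange factor for Rac, had 0.76 ± 0.18, and Itgav, the integrin alpha V subunit, had 0.47 ± 0.11 in the authors' deposited table (adjusted p = 0.027 for both). Tuba1c, an alpha tubulin, went the other way, from 2479 in wildtype to 3774 in Ret null, 3638 in Sema3d null and 2913 in double null guts. The departure from additivity was -0.93 ± 0.22 in the authors' deposited table (adjusted p = 0.024), and alpha tubulin genes are near-identical, so its counts are uncertain. With the trend on transcript length described below removed, Farp2 passed, while Col12a1, Prex2, Itgav and Tuba1c, then at 0.58, 0.58, 0.35 and -0.83, did not.

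Klhl11, an adaptor of a ubiquitin ligase, had fitted levels of 239 in wildtype, 217 in Ret null, 181 in Sema3d null and 265 in double null guts, with a product coefficient of 0.69 ± 0.15 in the authors' deposited table (adjusted p = 0.0053). Birc6, a giant inhibitor of apoptosis protein, had 3718, 3366, 2991 and 3711 in the same order, with 0.45 ± 0.11 in the authors' deposited table (adjusted p = 0.020). In both genes Sema3d null guts had the lowest level. Vps13c, a lipid transfer protein, had 0.61 ± 0.15, the ubiquitin ligase Herc2 0.44 ± 0.11, the ribosome assembly ATPase Mdn1 0.46 ± 0.12 and the scaffold protein Ahnak 0.51 ± 0.13 in the authors' deposited table. With the length trend removed none of Birc6, Vps13c, Herc2, Mdn1 and Ahnak passed. Their coefficients were then 0.22, 0.43, 0.26, 0.24 and 0.31, with adjusted p = 0.99, 0.475, 0.804, 0.983 and 0.824 by the chi-square tail. The zinc finger genes Zfp369, Zfp398 and Zfp729a had 0.70, 0.57 and 0.99 in the authors' deposited table. None of these 3 passed with the length trend removed. Zfp398 lies 22.2 kb from Pdia4, the called chaperone gene described below, and this pair of neighbours was noticed after their values were seen.

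Beside Tuba1c, the negative calls included Rpl29, Rpl27-ps3, Gm17383, Gm11353 and 1500015A07Rik. Rpl29, a protein of the large ribosomal subunit, had fitted levels of 2883 in wildtype, 5172 in Ret null, 4636 in Sema3d null and 4006 in double null guts, highest in both single nulls. Its coefficient for the product was -1.05 ± 0.26 in the authors' deposited table (adjusted p = 0.038). Rpl29 and the pseudogenes share sequence with other copies, and 1500015A07Rik is listed as antisense, so how their reads were assigned is uncertain.

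The calls were set beside the 3 tables that compare 1 null genotype with wildtype, which share the wildtype guts. The authors' deposited Ret null table had 2.27% of its 24602 genes lower and 0.386% higher, the Sema3d null one had 0.0202% of 24747 lower and 0.0202% higher, and the double null one had 1.87% of 24663 lower and 0.231% higher. Of the 34 genes called for the product coefficient, 15 were also called in the Ret null table, 3 in the Sema3d null table (Gm9581, Rpl27-ps3 and Samd5) and 3 in the double null table, and 17 in none of the 3. The product coefficient is fitted to the same null and wildtype guts as these tables, so this overlap is partly built in. It is no independent support for the calls. Samd5 had fitted levels of 443 in wildtype, 356 in Ret null, 316 in Sema3d null and 375 in double null guts and a product coefficient of 0.57 ± 0.13 in the authors' deposited table (adjusted p = 0.020). The smallest adjusted p belonged to Gm9581, a processed transcript with 136, 101, 79.7 and 145 in the same order and 1.28 ± 0.20 in the authors' deposited table (adjusted p = 8.8e-07).

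At a fitted level of at least 50, none of the genes with the lowest Ret coefficients was called for the product coefficient. With 0.152% of all genes called, 0 calls among so few genes is no result about them. Beside Ret, the 11 lowest at that level included Dbh, Chrna3, Tlx2, Stmn3, Elavl3, Tubb3, Mab21l1, Ina and Cck. Their fitted levels were 1.29 to 4.09% of wildtype in Ret null guts, 78.5 to 102% in Sema3d null guts and 1.12 to 3.87% in double null guts. Tubb3, the neuronal beta tubulin, stood at 645 in wildtype, 15.7 in Ret null, 603 in Sema3d null and 14.8 in double null guts. Its product coefficient was 0.02 ± 0.33 in the authors' deposited table (95% interval -0.63 to 0.66). Elavl3, a neuronal RNA-binding protein, stood at 230.2, 5.37, 236 and 5.95 in the same order, and its product coefficient was 0.11 ± 0.43 in the authors' deposited table (95% interval -0.72 to 0.95). Dbh, which makes noradrenaline, had a wider interval, -0.23 to 2.13 around 0.95, in the authors' deposited table. The smallest adjusted p of the 11 was 0.738 in the authors' deposited table. Below that level the pseudogene Tma7-ps, with fitted levels of 33.7 in wildtype and 0.751 in Ret null guts and a Ret coefficient of -5.49, was called at 5.82 ± 1.35 in the authors' deposited table (adjusted p = 0.021). In bulk guts, fewer cells of a type and less RNA per cell cannot be told apart.

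**Figure D2:**
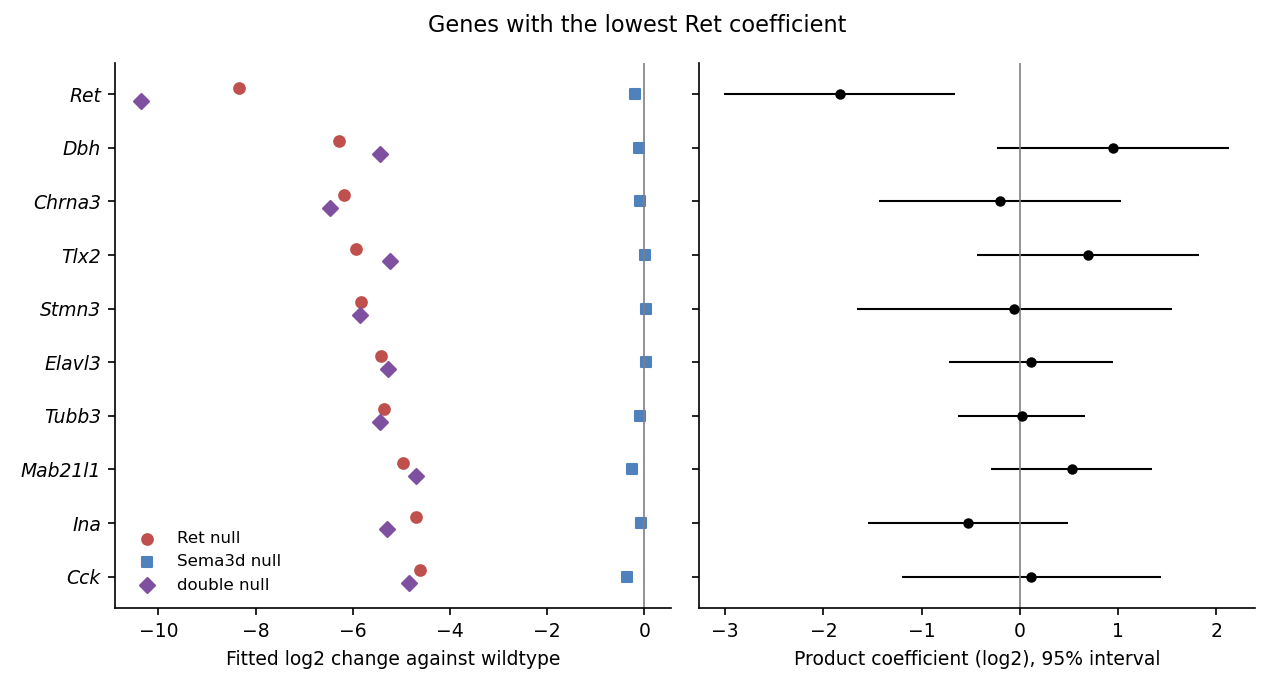
Left, fitted log2 change against wildtype of 10 of the 12 genes with the lowest Ret coefficient at a fitted level of at least 50 in Ret null (circles), Sema3d null (squares) and double null guts (diamonds). Right, their product coefficients with 95% intervals on the log2 scale. Double null and Ret null points lie within 1 log2 unit of each other except for Ret, Sema3d null points lie near 0, and each interval but that of Ret includes 0.

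The neural lists as a whole were counted in the same way. The lists of enteric neural crest and progenitors, neurons, glia and synapse genes had 81 distinct genes other than Ret at a level of at least 50. None of the 81 was called for the product coefficient. Of all genes 0.152% were called, so 0 of 81 is no result about these lists. At an unadjusted p under 0.05, 9 had a positive and 2 a negative coefficient (11.1% and 2.47%, beside 6.41% and 4.04% of all genes at that level). The median product coefficient was 0.06, beside -0.0012 for all 12411 genes at that level. The authors' deposited Ret null table called 59 of the 81 as lower, and the double null table called 57 of those 59 as lower. These 59 genes had a median log2 coefficient of -1.92 for Ret null, -0.09 for Sema3d null and -1.77 for double null guts, and a median product coefficient of 0.11. The 95% interval lay within 1 log2 unit of 0 for 39 of the 59 and within 0.5 for 9. For most of them the interval thus held values larger than 0.5 in size.

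Progenitor genes had the highest median among the neural lists. Of 20 progenitor genes at that level, 15 were positive, 4 with an unadjusted p under 0.05, and the median was 0.17, or 0.16 with the trend on transcript length described below removed. Zeb2, a transcription factor of the neural crest, stood at 1692 in wildtype, 1192 in Ret null, 1589 in Sema3d null and 1506 in double null guts. The product coefficient came to 0.43 ± 0.13 in the authors' deposited table (p = 0.00103, adjusted p = 0.186), which became 0.22 with the length trend removed and 0.19 with GC content removed too. Ngfr, the low-affinity neurotrophin receptor, stood at 444, 189, 396 and 224 in the same order, with 0.41 ± 0.16 in the authors' deposited table (adjusted p = 0.505). Nrcam, an adhesion protein of neurons and glia, had 0.58 ± 0.24 (adjusted p = 0.566 in the authors' deposited table). For all 3 the double null level lay between Ret null and wildtype, and none passed. The neuron list had a median of -0.0032 over 27 genes at that level, with 2 genes in each direction at an unadjusted p under 0.05. Gap43, a growth cone protein, was one of the negative ones, at -0.32 ± 0.14 in the authors' deposited table (adjusted p = 0.578). For glia genes the median was 0.06 with 0 of 14 genes at that p, and for synapse genes -0.03 with 3 of 23.

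The pathways of both targeted genes were described next. In the list of Ret and Ednrb signalling, 0 of 27 genes were called, and 3 of 23 at a level of at least 50 were positive and 1 negative at an unadjusted p under 0.05 (13% and 4.35%, beside 6.41% and 4.04% of all genes at that level). At 0.152% of all genes called, 0 of 27 is no result about the list. Gfra2, the co-receptor for neurturin, stood at 92.4 in wildtype, 43.9 in Ret null, 90.7 in Sema3d null and 65.2 in double null guts, with a product coefficient of 0.60 ± 0.24 in the authors' deposited table (p = 0.012, adjusted p = 0.513). Dusp6, a phosphatase induced by ERK signalling, had 0.25 ± 0.12 in the authors' deposited table (adjusted p = 0.684). Among 31 semaphorins, plexins and neuropilins, Plxna4 was the 1 gene called. At an unadjusted p under 0.05, 5 of the 30 at a level of at least 50 were positive and 0 negative (16.7% and 0%, beside 6.41% and 4.04% of all genes at that level), and the list median was 0.07. The 1 call stands beside 0.152% of all genes. The other 4 were Sema3d itself, Sema5a at 0.34 ± 0.15, Sema6d at 0.29 ± 0.13 and Nrp1 at 0.23 ± 0.11 in the authors' deposited table, none of which passed. The genes of this list were long, with a median exonic length of 7720 bases, beside 4696.5 for all genes at that level. With the trend on transcript length described below removed, the list median was 0.05. Plxna4 then had 0.50 and did not pass (adjusted p = 0.338 by the chi-square tail).

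Chaperones of the endoplasmic reticulum had the highest median of the 26 lists at a level of at least 50. These proteins fold and oxidise secreted and membrane proteins, and many of their genes rise together when unfolded proteins build up. Of 22 genes 18 had a positive product coefficient, 9 of them at an unadjusted p under 0.05 and 0 negative ones (40.9% and 0%, beside 6.41% and 4.04% of all genes at a level of at least 50), and the list median was 0.27. The 1 called gene, Pdia4, is a protein disulfide isomerase (ENSMUSG00000025823.9, GRCm38 chr6:47796141-47813430, minus strand). Its fitted levels were 2367 in wildtype, 2119 in Ret null, 2066 in Sema3d null and 2619 in double null guts, lower in both single nulls and highest in the double null. The departure from additivity was 0.50 ± 0.11 in the authors' deposited table (adjusted p = 0.0054). None of the 22 genes was called against wildtype in any of the 3 single comparisons. Of all genes, 2.27% were called lower and 0.386% higher in Ret null guts, and 1.87% and 0.231% in double null guts. In Sema3d null guts 0.0202% were called each way, and at these shares 0 of 22 is no result. The list medians were -0.09 for Ret null, -0.08 for Sema3d null and 0.07 for double null guts.

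The chaperone genes with the next smallest p did not pass. Hyou1, a large chaperone of the Hsp70 family, stood at 2257 in wildtype, 2114 in Ret null, 1950 in Sema3d null and 2381 in double null guts, with 0.38 ± 0.11 in the authors' deposited table (adjusted p = 0.109). Dnajc3, a co-chaperone, had 0.42 ± 0.13 and Sel1l, which carries misfolded proteins out of the reticulum, 0.36 ± 0.11 in the authors' deposited table (adjusted p = 0.174 and 0.183). Hspa5, the main chaperone of the reticulum, named here after its values were seen, stood at 7833, 7085, 6735 and 8261, with 0.44 ± 0.14 in the authors' deposited table. Each of these genes had the same order of levels, double null above wildtype or near it and Sema3d null lowest. The transcription factors Atf4 and Ddit3, which act in the stress response of the reticulum, both had -0.12 in the authors' deposited table and did not follow. Ero1lb, an oxidase of the reticulum that was not in the list and is taken up here because it was called, had 0.93 ± 0.23 in the authors' deposited table (adjusted p = 0.049). With the trend on transcript length described below removed, Ero1lb did not pass (0.88, adjusted p = 0.138 by the chi-square tail). Its levels were 95.3 in wildtype, 61.4 in Ret null, 66.7 in Sema3d null and 81.6 in double null guts.

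**Figure D3:**
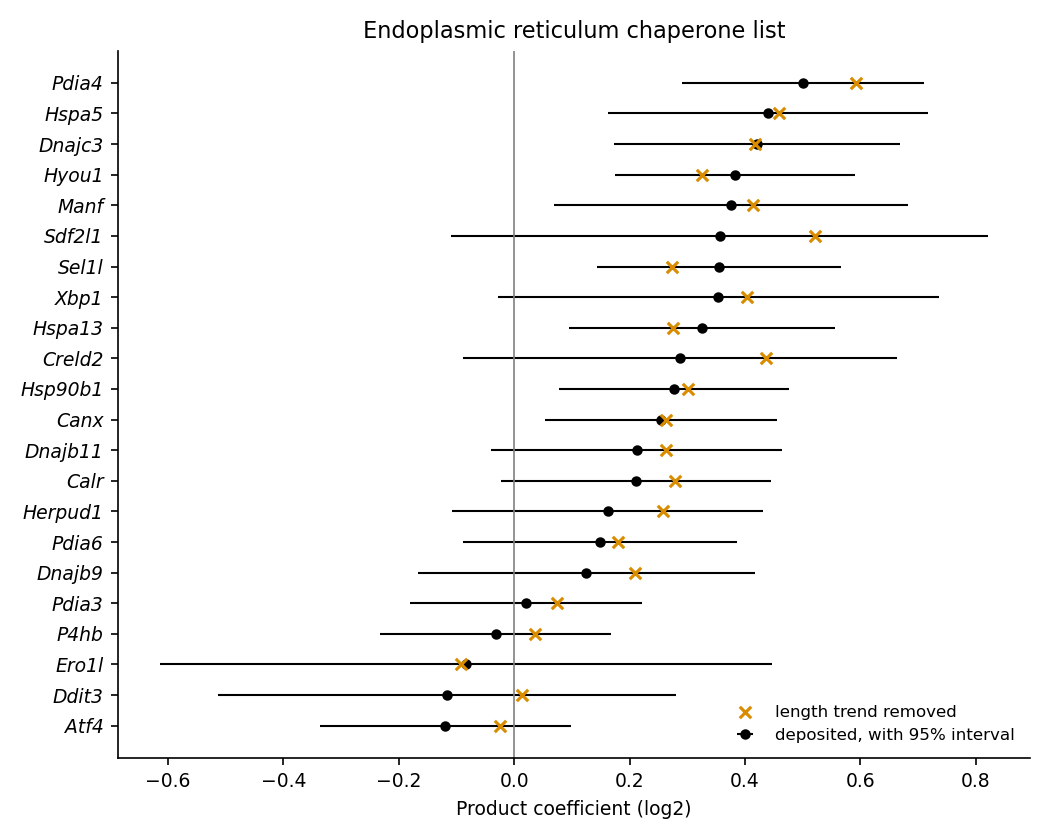
Product coefficients (log2) of the 22 genes of the endoplasmic reticulum chaperone list with 95% intervals (black), and the same with the trend on transcript length removed (crosses). Of the 22 points 18 lie above 0, Pdia4 highest at 0.50, and the crosses lie near or above most of the points.

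The promoters of 4 chaperone genes are printed because some genes of this list hold a known element, the endoplasmic reticulum stress element. It was searched on both strands as CCAAT and CCACG in this order with 9 bases between them. Promoters are the 250 bases before the RefSeq start (GRCm38.p6), and 18 of the 22 genes had one. The element was found in 7 of the 18 promoters (38.9%), against 37 of 32851 promoters in all (0.113%). The element is named for genes of this kind, so its share in the list is no result about the product coefficient. Of the 9 genes with an unadjusted p under 0.05, 6 had a promoter and 4 of those held the element, and of the other 13 genes 12 had a promoter and 3 held it. These counts are small and their difference was not tested. Capitals mark the element, on either strand, in Hspa5, Dnajc3 and Hsp90b1, all with an unadjusted p under 0.05. In the called gene Pdia4 the full element was not found in this window, and capitals mark 3 matches of CCAAT, which 33.8% of all promoters hold. A match describes the letters only. The coordinates are chr6:47813513-47813762 (minus strand) for Pdia4, chr2:34771840-34772089 (plus strand) for Hspa5, chr14:118937682-118937931 (plus strand) for Dnajc3 and chr10:86705445-86705694 (minus strand) for Hsp90b1.
Pdia4: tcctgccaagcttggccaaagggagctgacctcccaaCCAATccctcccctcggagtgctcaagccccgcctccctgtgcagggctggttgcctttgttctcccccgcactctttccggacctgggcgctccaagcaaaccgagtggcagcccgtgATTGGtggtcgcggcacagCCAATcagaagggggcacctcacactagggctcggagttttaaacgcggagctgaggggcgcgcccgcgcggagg
Hspa5: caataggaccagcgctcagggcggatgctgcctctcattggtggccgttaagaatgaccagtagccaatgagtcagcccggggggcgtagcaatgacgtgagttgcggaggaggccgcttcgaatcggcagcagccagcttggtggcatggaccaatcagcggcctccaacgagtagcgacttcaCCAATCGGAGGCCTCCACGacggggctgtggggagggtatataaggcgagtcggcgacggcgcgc
Dnajc3: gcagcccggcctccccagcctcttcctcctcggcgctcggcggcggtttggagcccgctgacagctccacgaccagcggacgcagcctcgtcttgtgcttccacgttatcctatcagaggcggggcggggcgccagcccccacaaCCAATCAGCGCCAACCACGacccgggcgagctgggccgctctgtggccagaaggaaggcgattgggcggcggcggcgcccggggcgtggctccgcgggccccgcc
Hsp90b1: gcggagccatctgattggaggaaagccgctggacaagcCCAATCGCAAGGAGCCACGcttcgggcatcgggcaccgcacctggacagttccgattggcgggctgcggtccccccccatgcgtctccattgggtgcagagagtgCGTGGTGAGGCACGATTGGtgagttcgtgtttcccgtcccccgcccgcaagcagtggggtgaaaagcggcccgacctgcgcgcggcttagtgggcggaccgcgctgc

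The product coefficient moved with transcript length. Genes at a level of at least 50 were put into 10 groups of rising exonic length. The median product coefficient was -0.16 in the group of the shortest genes (median 1377 bases) and 0.15 in that of the longest (median 12881 bases). Sema3d null guts had the opposite order, with medians of 0.11 and -0.10, Ret null guts a smaller one, with 0.04 and -0.03, and double null guts -0.0099 and 0.02. Long genes were thus lower and short genes higher in both single nulls, more so in Sema3d null guts, and near wildtype in the double null. The 26 positive calls with a length had a median of 9963.5 bases and the 7 negative ones 1355 bases, beside 4696.5 bases for all genes at that level, and 12 of the positive calls fell in the group of the longest. Spearman's rho across these genes, which share all libraries, was 0.45 with length and -0.37 with GC content, as a description. The part of library preparation or RNA quality in this trend was not tested, since no value per gut was at hand.

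**Figure D4:**
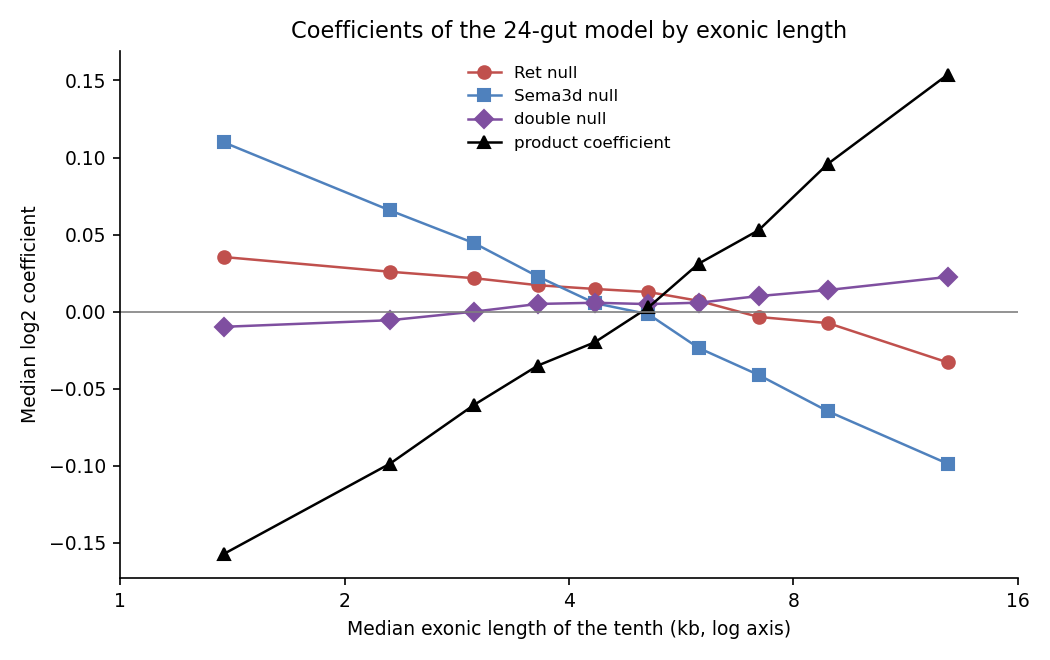
Median log2 coefficient of genes in 10 groups of exonic length, against the group's median length in kb on a log axis. The product coefficient (triangles) goes from -0.16 to 0.15, Sema3d null guts (squares) from 0.11 to -0.10, Ret null guts (circles) less steeply, and double null guts (diamonds) stay near 0.

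With the length trend removed, 8 of the 33 called genes with a length still passed at an adjusted p under 0.05. They were Pdia4, Klhl11, Farp2, Gm38372 and Tma7-ps, which were positive, and Rpl27-ps3, Gm17383 and Gm11353, which were negative. Pdia4 then had 0.59 and Klhl11 0.78, both above the deposited coefficient. By the chi-square tail of the squared ratio of coefficient to derived error, 25 no longer passed. Of these, tested by that chi-square tail, Lyst had 0.70 (adjusted p = 0.134), Col12a1 0.58 (adjusted p = 0.237), Plxna4 0.50 (adjusted p = 0.338) and Birc6 0.22 (adjusted p = 0.99). With GC content removed as well, Pdia4, Klhl11, Farp2 and Tma7-ps passed. The counts of Tma7-ps and Gm11353 rest on fitted levels of 33.7 and 0.73 in wildtype guts.

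The lists of ribosomal proteins, nuclear respiratory chain genes and collagens lay in the direction of this trend. Of 79 ribosomal protein genes, with a median exonic length of 1770 bases, 73 had a negative product coefficient, 23 at an unadjusted p under 0.05 (29.1%, beside 4.04% of all genes at that level), and the median was -0.21. With the length trend removed the median was -0.08. Of 75 nuclear genes of the respiratory chain 71 were negative, 8 at that p, with a median of -0.17 that became -0.05. Of 27 collagen and matrix genes, with a median length of 9243 bases, 24 were positive, 5 at that p, with a median of 0.18 that became 0.08. Fbn1, a microfibril protein, had 0.36 ± 0.11 in the authors' deposited table (adjusted p = 0.221). Erythroid genes, with a median length of 938 bases, had a median of 0.08 and were not in that direction. The chaperone list did not follow the trend either, with a median length of 3242 bases and a median of 0.27 both before and after its removal, and 0.26 with GC content removed too.

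Genes of hypoxia and glycolysis were negative in 16 of 17 cases at a level of at least 50, where 49.8% of all genes were positive. Of the 17, 2 were negative at an unadjusted p under 0.05 (11.8%, beside 4.04% of all genes at that level). The list median was -0.18, or -0.17 with the length trend removed. The median derived error of these genes was 0.33, beside 0.136 for all genes at that level. Eno1, a glycolytic enolase, stood at 5929 in wildtype, 7567 in Ret null, 8939 in Sema3d null and 6808 in double null guts, with -0.74 ± 0.26 in the authors' deposited table (adjusted p = 0.347). Gapdh had -0.44 ± 0.14 in the authors' deposited table (adjusted p = 0.22). Neither passed, and both have many processed copies in the genome. The mitochondrially encoded respiratory genes had a median of -0.05, or 0.22 with the length trend removed, and mt-Nd4l, at 0.64 ± 0.21 in the authors' deposited table (adjusted p = 0.25), passed once that trend was removed (0.90, adjusted p = 0.038). With GC content removed as well, mt-Nd4l did not pass (0.83, adjusted p = 0.118 by the chi-square tail) and the list median was 0.07.

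In endothelium, 0 of 17 genes were called for the product coefficient and the median was 0.03, while the authors' deposited double null table called 8 of the 17 as higher (0.231% of all genes) and both single null ones called 0 (0.386% and 0.0202% of all genes), shares at which 0 of 17 is no result. Pecam1, an adhesion protein of vessel walls, stood at 916 in wildtype, 943 in Ret null, 1064 in Sema3d null and 1117 in double null guts. Its coefficient for the product was 0.03 ± 0.11 in the authors' deposited table, so the double null level was near both single changes multiplied. Kdr, the main VEGF receptor, had 0.30 ± 0.11 in the authors' deposited table (p = 0.0061, adjusted p = 0.406). The remaining 13 lists were those of gut epithelium, smooth muscle, mesenchyme, mesothelium, macrophages, erythroid cells, pancreas and liver, kidney and gonad, skeletal muscle and sensory ganglia, cell cycle, stress response, histones and sex-linked genes. They held 0 calls for the product coefficient, beside 0.152% of all genes, a share at which this is no result about them. Their medians at a level of at least 50 lay between -0.15 and 0.09.

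**Figure D5:**
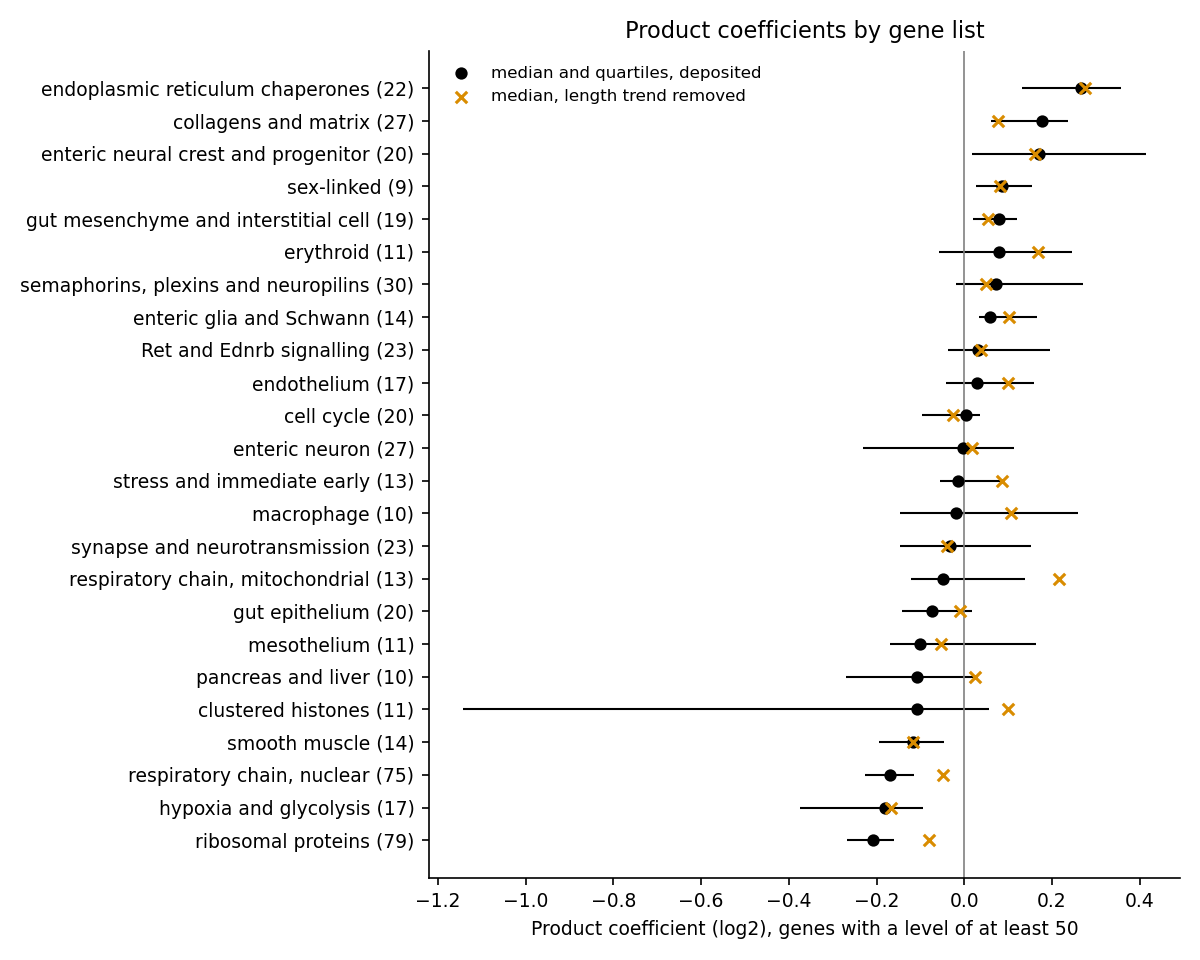
Median product coefficient (log2, black points) of each gene list with at least 5 genes at a level of 50, with lines from the first to the third quartile and the number of genes in brackets. Crosses mark the median with the length trend removed. Endoplasmic reticulum chaperones stand highest at 0.27 before and after, and ribosomal proteins lowest at -0.21, or -0.08 after removal.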

How the data were processed

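Poly-A RNA of 24 embryonic guts was sequenced as stranded libraries of read pairs, per the labels' protocols. The submitters' processing notes name DESeq 1.24.0, RSEM 1.2.31, STAR, Trimmomatic 0.36 and FastQC 0.11.5, and the build GRCm38. Whether counting used strand, and the version of STAR, are not given in the sources used here. What the authors deposited were 4 tables of generalised linear model fits: 1 over all 24 guts, with terms for sex, for each gene and for the product, and 3 over 12 guts each.

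Log2 coefficients were taken as deposited by the authors. No header names the base: fitted wildtype levels, in units of 1e6 normalised counts, sum to 11.8 with base 2 and to 449.8 with the natural base, and base 2 was used. A few coefficients of other, unbounded fits lie beyond the log2 range. The model deviances deposited by the authors served as a score of fit, and the deposited p-values and adjusted p-values belong to the product term. Recomputed from the deviances by chi-square with 1 degree of freedom, they differed by at most 4.91e-09, with Benjamini-Hochberg adjustment. The derived error is the size of a coefficient over the square root of its deviance difference, and 95% intervals rest on it. P-values measure the spread between these guts.

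Genes were called at an adjusted p under 0.05. Exonic length and GC content came from GENCODE M21 (GRCm38), matched by gene ID for 22318 of 22438 genes, and trends were removed by lowess (share 0.3 of genes) with statsmodels 0.14.6. Scripts ran in Python 3.11.15 with pandas 2.3.3 and scipy 1.17.1 and were tested on simulated data. The members and the 26 gene lists were chosen with earlier results of these data known. Named genes were Ret and Sema3d, the 20 smallest p, the 8 largest calls each way, the extreme Ret and Sema3d coefficients, up to 4 genes of smallest p per list and 3 near each target, with other genes named as such or as called genes, list members or tissue markers. Some genes that this rule names are counted in totals and are not reported here by name. Without values per gut no test on counts could be made. Alternatives changed the threshold, the rows adjusted over, the bound, the source tables, and the length and GC trends.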

Additional observations from a re-analysis of the deposited data

Results flagged for a closer look

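The effect of Ret loss with Sema3d present differed from its effect with Sema3d absent, by the test of the product term (adjusted p under 0.05 in the authors' deposited table), in 34 genes. The log2 difference, Ret effect in Sema3d null background minus Ret effect in wildtype background, was positive in 27. In the authors' deposited table these were Tma7-ps 5.82, Gm9581 1.28, Gm38372 1.12, Zfp729a 0.99, Ero1lb 0.93, Lyst 0.88, Wdfy2 0.78, Prex2 0.76, Col12a1 0.74, Zfp369 0.70, Klhl11 0.69, Farp2 0.69, Plxna4 0.66, Vps13c 0.61, Zfp398 0.57, Samd5 0.57, Gm38394 0.53, Kctd12 0.52, Ahnak 0.51, Pdpr 0.51, Pdia4 0.50, Itpripl2 0.50, Itgav 0.47, Mdn1 0.46, Birc6 0.45, Herc2 0.44 and Nhsl2 0.43. Among the 7 negative values were Gm11353 -7.81, Gm17383 -1.71, Rpl27-ps3 -1.70, Rpl29 -1.05, 1500015A07Rik -0.93 and Tuba1c -0.93 in the authors' deposited table. In Klhl11, Pdia4 and Farp2 the Ret coefficient was -0.14, -0.16 and -0.25 with Sema3d present and 0.55, 0.34 and 0.44 with Sema3d absent. In Plxna4 it was -1.44 and -0.78, below 0 in both backgrounds.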

How the results depend on the processing

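Under adjustment over bounded and converged rows alone 25 of the 34 calls remained, with a bound of 5 there were 32, without the demand for convergence 40, and with adjustment over genes at a level of at least 50 there were 48, of which 32 were among the 34. Of the 43 calls over all rows, 14 had an adjusted p under 0.01, and 65 genes were under 0.1. Adjustment over bounded and converged rows gave 25, scaling the deviances to their median 17, and removal of the length trend 9. Among bounded and converged genes, removal of the length trend left 9 calls and of length and GC trends 4, and list genes went from 4 calls to 2 and 1. Removal of these trends among bounded and converged genes and lists was added after seeing the data, as was adjustment over genes at that level for the 34. The coefficients of named genes taken from the 3 tables of 12 guts kept their direction in 155 of 155 cases, a value with no test of its own. Those tables fit the same guts and give the same contrast, so this is no independent check. Reversed signs were those of mt-Nd1 (0.0049) and Stmn3 (0.10) with the length trend removed, and of Stmn3 (0.16) and Cenpf (-0.0021) with both trends removed, all 3 far from the threshold; the cause was not tested. No paired analysis was possible because the tables hold no values per gut, and for the same reason the replicate block and leaving out each gut in turn were not run. Precision is limited at low levels. At a level of at least 50 the smallest coefficient called had a size of 0.43, at Nhsl2 with a fitted level of 1652 in wildtype. Smaller departures could thus go uncalled in well-expressed genes too.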

Other observations

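At a fitted level of at least 50, none of the genes with the 4 lowest and 4 highest Sema3d coefficients of the 24-gut fit was called for the product coefficient. Of all genes 0.152% were called, so 0 calls among so few is no result about these genes. Below that level the called pseudogenes Gm11353 and Tma7-ps had Sema3d coefficients of 3.11 and -1.78 in the authors' deposited table. Gm14288 stood at fitted levels of 98.9 in wildtype, 44.2 in Ret null, 26.8 in Sema3d null and 132 in double null guts, with a product coefficient of 3.46 ± 1.37 in the authors' deposited table (adjusted p = 0.517). Hist1h2ah, a replication-dependent histone gene whose transcripts mostly lack a poly-A tail, stood at 132, 1017, 596 and 648 in the same order. Its product coefficient was -2.82 ± 1.2 in the authors' deposited table (adjusted p = 0.586).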
